A study of Homo sapiens with 8 samples.

Results

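The 42 genes described here encode the centromere, the kinetochore and the spindle checkpoint. They were taken by symbol from a table of 58735 genes, and each symbol matched 1 row. PC3 is a human prostate cancer cell line, and its poly(A) RNA was sequenced 48 h after lipofection with synthetic RNA. There were 4 libraries labelled siCtrl (genotype WT) and 4 labelled siPRMT7 (genotype PRMT7 knockdown), and library names give the same samples the prefix sh. All groups share the transfection, and the labels name neither the number nor the sequences of the RNAs. Nothing in the labels says that the replicates were separate cultures, so p-values measure only the spread between these libraries, which may be technical. PRMT7 is an arginine methyltransferase, and the series title ties it to the cell cycle.

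A centromere is marked by nucleosomes that hold the histone H3 variant CENP-A, which the chaperone HJURP deposits after the MIS18 proteins have prepared the site. A network of CENP proteins sits on this chromatin throughout the cell cycle. In mitosis it recruits the KNL1, MIS12 and NDC80 complexes, the last of which grips the ends of spindle microtubules. Kinetochores without microtubules gain a fibrous corona and activate the checkpoint kinases and MAD and BUB proteins, which delay anaphase. Many of these genes are transcribed mainly in G2 and mitosis, so their level in a bulk culture follows the share of dividing cells. In bulk RNA, fewer cells in G2 and mitosis and less RNA per cell cannot be told apart.

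Many late cell cycle promoters carry a CHR element, bound by the DREAM and MuvB complexes, and CCAAT boxes, bound by NF-Y. Promoters from RefSeq (GRCh38.p14), 250 bases before to 50 after the start, matched 34 of the 42 symbols, and where a gene had several the one farthest upstream was used. The letters TTTGAA (CHR, either strand) occurred in 16 of these 34 promoters (47.1%), against 15.5% of 27326 promoters of all genes. CCAAT, on either strand, occurred in 21 of 34 (61.8%), against 35.7% of all. Both occurred in 10 of 34 (29.4%), against 6.13% of all. The E2F-type letters TTTNNCGC occurred in 7 of 34 (20.6%), against 6.93% of all. Of the 12 matched genes that were lower in siPRMT7 libraries at an unadjusted limma p under 0.05, 7 had TTTGAA, and of the 22 others 9 did. KNL1, KNTC1 and TTK were also lower at that p but had no matched promoter. CCAAT occurred in 6 of those 12 and in 15 of the 22, and TTTNNCGC in 0 of the 12 and in 7 of the 22, with no test of these splits. A match is a description of letters and not of binding.

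Promoters of 4 genes with lower values in siPRMT7 libraries and of 3 whose values overlapped are shown, because TTTGAA and CCAAT stand in both kinds. Each runs from 120 bases before to 30 bases after the start, and TTTGAA and CCAAT on either strand are in capitals.
BUB1B (chr15:40160949-40161098, plus strand): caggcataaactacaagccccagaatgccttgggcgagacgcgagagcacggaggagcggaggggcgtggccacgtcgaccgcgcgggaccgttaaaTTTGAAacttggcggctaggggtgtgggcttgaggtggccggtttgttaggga
SPC25 (chr2:168890401-168890550, minus strand): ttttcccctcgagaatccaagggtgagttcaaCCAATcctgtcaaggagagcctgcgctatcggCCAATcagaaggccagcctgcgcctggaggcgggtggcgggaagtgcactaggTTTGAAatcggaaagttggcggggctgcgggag
CENPN (chr16:81007094-81007243, plus strand): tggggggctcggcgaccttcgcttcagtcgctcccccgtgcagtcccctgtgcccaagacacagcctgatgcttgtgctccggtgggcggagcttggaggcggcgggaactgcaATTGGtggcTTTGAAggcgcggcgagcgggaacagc
HJURP (chr2:233854506-233854655, minus strand): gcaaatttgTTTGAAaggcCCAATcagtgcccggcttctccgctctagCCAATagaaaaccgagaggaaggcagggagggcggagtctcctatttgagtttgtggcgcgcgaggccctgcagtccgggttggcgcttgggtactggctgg
NDC80 (chr18:2571437-2571586, plus strand): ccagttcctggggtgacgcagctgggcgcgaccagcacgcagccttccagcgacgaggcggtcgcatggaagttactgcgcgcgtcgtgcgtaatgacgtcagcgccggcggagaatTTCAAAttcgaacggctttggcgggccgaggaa
ZWINT (chr10:56361244-56361393, minus strand): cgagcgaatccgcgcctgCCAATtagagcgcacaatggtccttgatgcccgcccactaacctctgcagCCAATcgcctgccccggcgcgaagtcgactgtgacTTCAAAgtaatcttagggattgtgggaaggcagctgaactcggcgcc
CENPA (chr2:26785936-26786085, plus strand): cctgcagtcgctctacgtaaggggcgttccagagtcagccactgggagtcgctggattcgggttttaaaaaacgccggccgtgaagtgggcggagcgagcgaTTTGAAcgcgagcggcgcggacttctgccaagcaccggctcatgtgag
The first 4 belong to genes whose groups did not overlap, with siPRMT7 the lower. NDC80, ZWINT and CENPA carry TTTGAA close to the start, and their groups overlapped. All promoters shown hold TTTGAA. Those of CENPE and DSN1, whose siPRMT7 libraries all lay below their siCtrl libraries, do not. CENPI, with siPRMT7 libraries likewise all lower, had no TTTGAA either. The stretch used for CENPI (101100938 to 101101087) lies inside the gene, which starts at 101098218 in GENCODE, so it may not be the promoter. Stretches of SPC25, CENPA and some other members also lie inside the GENCODE gene. All of these are counted among the 34 matched promoters, and CENPI and SPC25 among the 12.

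The libraries held 14526030 to 15724862 fragments. PRMT7 had 5.11 ± 0.183 and 4.69 ± 0.298 FPKM in the siCtrl and siPRMT7 libraries (SD, n = 4 each), 8.29% lower, and the exact permutation p was 0.0571 (two-sided, smallest possible 0.0286). Replicate 2 of siPRMT7 stood apart, at 28.4 on the first principal component against -11.9 to 7.36 in the other 7 libraries, and the share of fragments from ribosomal protein genes was 3.89% in it and 2.93 to 3.41% elsewhere. Counts over the members, complexes, partner pairs and comparison lists are therefore given below with and without it. The epithelial genes KRT8, KRT18, KRT19 and EPCAM had siCtrl means of 58.5, 50.7, 297 and 7.38 FPKM, but CDH1 had 0.454. Of the prostate luminal genes, KLK3 and KLK2 had 0 fragments in every library, which allows up to 3 fragments in each, and TMPRSS2 had a siCtrl mean of 1.87 FPKM. Of the other cell types' markers, COL1A1, COL3A1, PECAM1 and CD14 had siPRMT7 means of 6.72, 2.14, 3.17 and 1.05 FPKM. CD3E had 0 fragments in every library, PTPRC had at most 26, LUM had at most 18, and DCN, CDH5 and VWF had at most 9.

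Values are FPKM, fragments per kilobase of gene scaled to library size. The length used counts all annotated exonic bases of a gene, so levels of different genes can be compared only roughly. Of the 42 genes, 41 passed a filter of at least 1 FPKM in at least 4 libraries. CENPP, a subunit of the inner network, did not, at 0.347 to 0.402 FPKM (51 to 63 fragments), and it shares 42.7% of its exonic bases with opposite-strand genes. The mean over the 8 libraries was under 5 FPKM for 13 of the 42 genes and over 10 FPKM for 11. ZWINT, which tethers the RZZ complex to KNL1, was highest at 51.7 FPKM, followed by the Spindly gene SPDL1 at 21.3 and SKA2 at 20.8. CENPC, the scaffold that links CENP-A chromatin to the outer kinetochore, had 2.06 FPKM, and CENPK had 1.61.

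Compared between groups, kinetochore genes were more often lower than higher in the libraries labelled siPRMT7, by small amounts, and none passed the test over all genes. The log2 difference of log2(FPKM + 1) was negative for 30 of 41 genes, with a median of -0.08, where 50.5% of the 13436 genes tested were negative and their median was 0.00. With limma at an adjusted p of 0.05 over all genes, 0 members were called lower (background 0%) and 0 higher (background 0.0149%). At an unadjusted p under 0.05, 15 members were lower (36.6%), against 5.49% of all genes, and 1 was higher, against 7.67% of all genes. In 11 members every siPRMT7 library lay below every siCtrl library, against 4.43% of all genes, and in 0 members did every siPRMT7 library lie above, against 4.14%. Without siPRMT7 replicate 2, 33 of 41 were lower with a median of -0.12, 16 were lower at an unadjusted p under 0.05, against 5.94% of all genes, and 13 did not overlap, against 6.62%. BUB3 and MAD2L1 were the 2 that no longer overlapped. With that library left out the log2 difference grew by over 1.5 times in 7 members, shrank by over 1.5 times in 5 and changed sign in 3, and these values are given beside the genes below. With limma's voom on rebuilt fragments 1 member, KNL1, was called lower (adjusted p = 0.0487), among 12 of all genes called in either direction. With library weights 2 members were, KNL1 (0.0405) and BUB1B (0.0444), among 58 of all genes. Over all settings the adjusted p of KNL1 ran from 0.0405 to 0.358 and that of BUB1B from 0.0444 to 0.382.

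**Figure D1:**
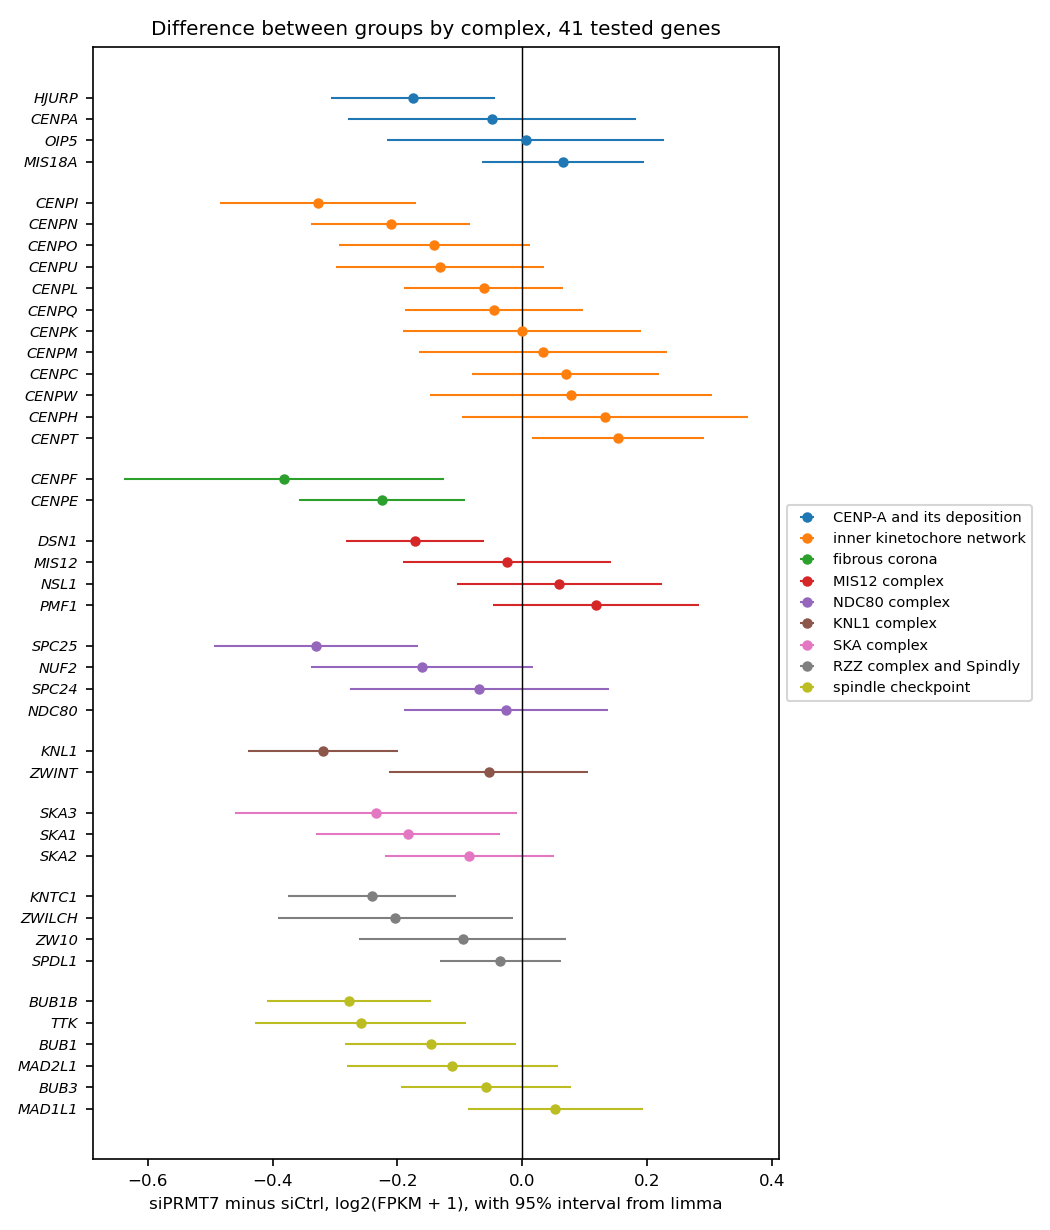
Difference between groups for the 41 tested genes, siPRMT7 minus siCtrl on the log2(FPKM + 1) scale (x axis), with the 95% interval from limma, grouped and coloured by complex. Points run from -0.38 for CENPF to 0.15 for CENPT, and 30 of the 41 lie left of 0.

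The share of genes with lower values varied between complexes. All 4 NDC80 complex genes, all 4 of the RZZ complex and Spindly, all 3 SKA genes, both KNL1 complex genes and both corona genes were lower, as were 5 of 6 checkpoint genes. Medians were -0.11 for the NDC80 complex, -0.15 for RZZ and Spindly, -0.18 for SKA, -0.19 for the KNL1 complex, -0.30 for the corona and -0.13 for the checkpoint. Among inner network genes 6 of 12 were lower and 6 higher (median -0.02), among CENP-A and its deposition factors 2 of 4 (median -0.02), and in the MIS12 complex 2 of 4 (median 0.02). These last 3 medians depended on siPRMT7 replicate 2. Without it 8 of 12 inner network genes (median -0.04), 3 of 4 genes of CENP-A deposition (median -0.07) and 2 of 4 MIS12 complex genes (median -0.04) were lower. With each library's trend on gene length removed these were 8 of 12 (median -0.06), 4 of 4 (median -0.10) and 2 of 4 (median -0.01). In the other complexes the number of lower genes was the same in both, with medians of -0.23 to -0.13 without the library. No difference between complexes was tested, and the complexes hold 2 to 12 tested genes each.

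**Figure D2:**
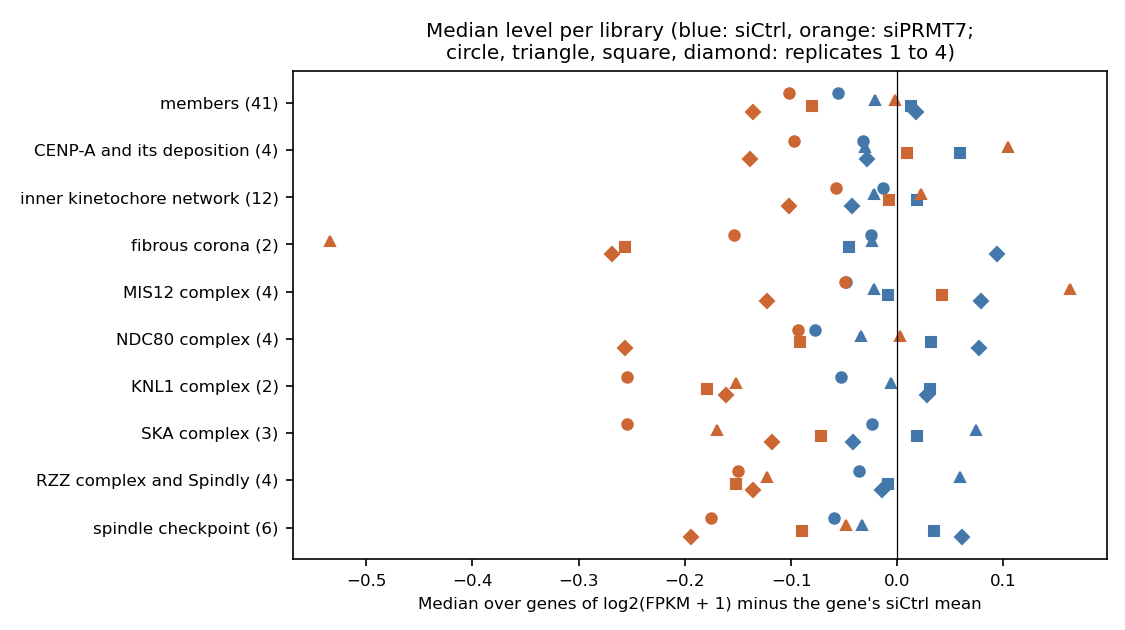
Median level per library for all members and for each complex (number of genes in brackets), as log2(FPKM + 1) minus each gene's siCtrl mean. In the RZZ, KNL1, SKA, corona and checkpoint rows all 4 siPRMT7 libraries have medians below 0, from -0.05 to -0.53. The checkpoint row still overlaps, with siPRMT7 replicate 2 (-0.049) above siCtrl replicate 1 (-0.060). In the row of all members siPRMT7 replicate 2 (-0.002) lies above siCtrl replicates 1 (-0.055) and 2 (-0.021). That library lies above 0 in the CENP-A row (0.10) and the MIS12 row (0.16).

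At the base of the kinetochore, HJURP separated the groups and CENPA did not, though without siPRMT7 replicate 2 their log2 differences were -0.14 and -0.15. HJURP (ENSG00000123485, chromosome 2, 233833416 to 233854566, minus strand) had 7.07, 7.64, 8.26 and 7.505 FPKM in siCtrl replicates 1 to 4 and 6.72, 6.06, 6.85 and 6.90 FPKM in siPRMT7 replicates 1 to 4. Every siPRMT7 library lay below every siCtrl library, and the means were 7.62 ± 0.493 and 6.63 ± 0.387 FPKM (SD, n = 4 each), 12.96% lower (log2 difference -0.18, 95% interval -0.31 to -0.04, limma adjusted p = 0.286). CENPA, the histone variant, had 7.57 ± 0.697 and 7.33 ± 1.24 FPKM in the 2 groups (-0.05), with the highest value, 9.13 FPKM, in siPRMT7 replicate 2. MIS18A and OIP5, which encode the paired MIS18 proteins that license deposition, had 11.4 ± 0.400 and 12.04 ± 0.934 FPKM (0.07, and 0.03 without that library) and 11.1 ± 1.11 and 11.2 ± 1.61 FPKM (0.01, and -0.01). OIP5 shares 38.0% of its exonic bases with OIP5-AS1 on the opposite strand, so its level is uncertain.

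Of the inner network, CENPI and CENPN were lower and the other subunits overlapped between groups. CENPI (ENSG00000102384, chromosome X, 101098218 to 101163681, plus strand), a subunit of the CENP-H/I/K/M group, had 3.47, 3.40, 3.68 and 4.08 FPKM in siCtrl replicates 1 to 4 and 2.62, 2.45, 2.87 and 2.92 FPKM in siPRMT7 replicates 1 to 4. The groups did not overlap, and siPRMT7 libraries were 25.9% lower on 159 to 256 fragments per library (log2 difference -0.33, 95% interval -0.48 to -0.17, limma adjusted p = 0.172). Its partners CENPH, CENPK and CENPM had log2 differences of 0.13, 0.00 and 0.03, with groups that overlapped, and 0.08, -0.04 and -0.03 without siPRMT7 replicate 2. CENPN (ENSG00000166451, chromosome 16, 81006498 to 81033114, plus strand), which reads the CENP-A nucleosome, had 6.70, 6.59, 6.48 and 6.14 FPKM in siCtrl replicates 1 to 4 and 5.77, 4.89, 5.58 and 5.64 FPKM in siPRMT7 replicates 1 to 4. Its siPRMT7 libraries all lay below its siCtrl libraries, by 15.6% in the mean (log2 difference -0.21, 95% interval -0.34 to -0.08, limma adjusted p = 0.217), and it shares 22.8% of its exonic bases with genes on the opposite strand, CMC2 among them. CENPL, which pairs with CENPN, had 13.1 ± 0.996 and 12.4 ± 0.415 FPKM (-0.06).

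The other inner network genes lay on both sides of 0. CENPT, a DNA-binding subunit that recruits NDC80, was the 1 member higher at an unadjusted p under 0.05, with 4.29 ± 0.292 and 4.88 ± 0.307 FPKM (log2 difference 0.15, 95% interval 0.02 to 0.29, limma adjusted p = 0.341). The CENPT groups overlapped, and 19.6% of its exonic bases are shared with opposite-strand genes. Its histone-fold partner CENPW had 9.08 ± 1.37 and 9.61 ± 1.01 FPKM, and CENPC had 1.99 ± 0.175 and 2.13 ± 0.0567 FPKM. CENPO, CENPQ and CENPU, of the CENP-O group, had log2 differences of -0.14, -0.04 and -0.13, and 31.4% of the exonic bases of CENPO are shared with opposite-strand genes.

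**Figure D3:**
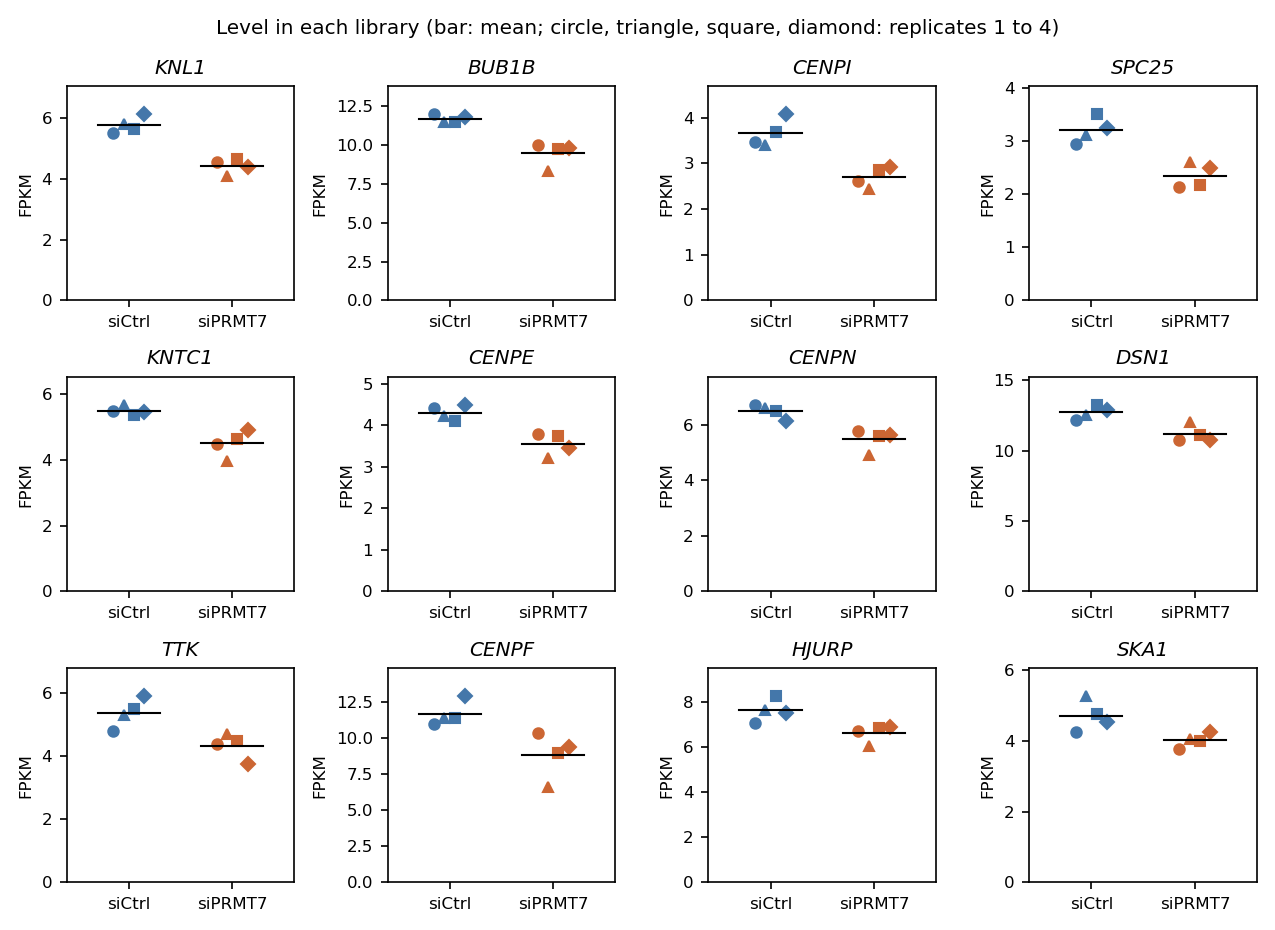
FPKM in each library for the 12 genes with the smallest limma p, with siCtrl in blue, siPRMT7 in orange, a bar at each group mean and a marker shape per replicate number. In 11 of the 12 all siPRMT7 points lie below all siCtrl points, and SKA1 touches at 4.25 FPKM.

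Among the genes of the outer kinetochore, KNL1 had the smallest p of all members. KNL1 (ENSG00000137812, chromosome 15, 40594020 to 40664342, plus strand), the scaffold that docks BUB1 and BUB3 once phosphorylated, had 5.50, 5.80, 5.62 and 6.13 FPKM in siCtrl replicates 1 to 4 and 4.55, 4.09, 4.65 and 4.396 FPKM in siPRMT7 replicates 1 to 4. The lowest siCtrl library lay 0.85 FPKM above the highest siPRMT7 library. Means were 5.76 ± 0.276 and 4.42 ± 0.244 FPKM (SD, n = 4 each), 23.3% lower, on 630 to 951 fragments (log2 difference -0.32, 95% interval -0.44 to -0.20, limma adjusted p = 0.119). ZWINT, its partner, had 52.6 ± 2.33 and 50.8 ± 5.02 FPKM and overlapped (-0.05, and -0.11 without siPRMT7 replicate 2). In the MIS12 complex, which joins KNL1 and NDC80 to the inner network, DSN1 (ENSG00000149636, chromosome 20, 36751791 to 36773818, minus strand) had 12.2, 12.6, 13.3 and 12.9 FPKM in siCtrl replicates 1 to 4 and 10.8, 12.1, 11.2 and 10.8 FPKM in siPRMT7 replicates 1 to 4. DSN1 did not overlap between groups and was 12.1% lower (log2 difference -0.17, 95% interval -0.28 to -0.06, limma adjusted p = 0.230). NSL1, MIS12 and PMF1 had log2 differences of 0.06, -0.02 and 0.12 with overlapping groups (0.01, -0.09 and 0.11 without that library), and 23.3% of the exonic bases of PMF1 are shared with the read-through gene PMF1-BGLAP.

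In the NDC80 complex SPC25 separated the groups and the other 3 subunits overlapped. SPC25 (ENSG00000152253, chromosome 2, 168834132 to 168913371, minus strand), a partner in the dimer that anchors the complex to MIS12, had 2.94, 3.12, 3.51 and 3.26 FPKM in siCtrl replicates 1 to 4 and 2.13, 2.60, 2.17 and 2.49 FPKM in siPRMT7 replicates 1 to 4. Every siPRMT7 library was below every siCtrl library, and the mean was 26.8% lower, on only 60 to 98 fragments per library (log2 difference -0.33, 95% interval -0.49 to -0.17, limma adjusted p = 0.179). With each library's trend on gene length removed its log2 difference was -0.41 and passed (limma adjusted p = 0.0494), and over all settings its adjusted p ran from 0.0494 to 0.395. SPC24, the other partner, had 4.03 ± 0.403 and 3.81 ± 0.547 FPKM (-0.07, and -0.14 without siPRMT7 replicate 2). NDC80 and NUF2, which bind the microtubule, had 7.34 ± 0.677 and 7.19 ± 0.564 FPKM (-0.03, and -0.07 without it) and 5.41 ± 0.460 and 4.74 ± 0.501 FPKM (-0.16).

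The SKA complex holds NDC80 on shrinking microtubule ends. SKA1 (ENSG00000154839, chromosome 18, 50374995 to 50394173, plus strand) had 4.25, 5.28, 4.77 and 4.53 FPKM in siCtrl replicates 1 to 4 and 3.77, 4.06, 3.99 and 4.25 FPKM in siPRMT7 replicates 1 to 4. The lowest siCtrl and the highest siPRMT7 library met at 4.25 FPKM, and the mean was 14.6% lower (log2 difference -0.18, 95% interval -0.33 to -0.04, limma adjusted p = 0.299). SKA3 was at 6.49, 6.48, 5.63 and 5.88 FPKM in siCtrl replicates 1 to 4 and 4.52, 5.00, 6.42 and 4.43 FPKM in siPRMT7 replicates 1 to 4. Replicate 3 of siPRMT7 lay among the siCtrl values and the other 3 siPRMT7 libraries lay below them all (log2 difference -0.23, 95% interval -0.46 to -0.01, limma adjusted p = 0.365). SKA2 had 21.4 ± 0.831 and 20.2 ± 1.59 FPKM (-0.08).

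Both corona genes were lower. CENPF (ENSG00000117724, chromosome 1, 214603195 to 214664588, plus strand), a very large protein that accumulates in G2, had 11.0, 11.4, 11.4 and 12.9 FPKM in siCtrl replicates 1 to 4 and 10.3, 6.61, 8.94 and 9.38 FPKM in siPRMT7 replicates 1 to 4. The groups did not overlap, and the mean was 24.5% lower (log2 difference -0.38, 95% interval -0.64 to -0.12, limma adjusted p = 0.247), with siPRMT7 replicate 2 lowest by 2.33 FPKM. Without that library the log2 difference of CENPF was -0.26. CENPE (ENSG00000138778, chromosome 4, 103105806 to 103198409, minus strand), the kinesin that carries chromosomes to the spindle equator, had 4.41, 4.23, 4.10 and 4.49 FPKM in siCtrl replicates 1 to 4 and 3.79, 3.21, 3.74 and 3.46 FPKM in siPRMT7 replicates 1 to 4. Its groups did not overlap either, and the siPRMT7 mean was 17.6% lower (log2 difference -0.22, 95% interval -0.36 to -0.09, limma adjusted p = 0.211). The RZZ complex and Spindly build the corona and bring dynein to it. KNTC1 (ENSG00000184445, chromosome 12, 122527246 to 122626396, plus strand), which encodes the Rod subunit, had 5.50, 5.67, 5.35 and 5.45 FPKM in siCtrl replicates 1 to 4 and 4.498, 3.97, 4.63 and 4.91 FPKM in siPRMT7 replicates 1 to 4. All its siPRMT7 libraries were below its siCtrl libraries, by 18.0% in the mean (log2 difference -0.24, 95% interval -0.38 to -0.11, limma adjusted p = 0.193). ZWILCH, with 8.33 ± 0.795 and 7.10 ± 0.769 FPKM (-0.20), shares 10.9% of its exonic bases with opposite-strand genes, among them the ribosomal protein gene RPL4. ZW10, which also acts in vesicle transport, had 15.2 ± 1.24 and 14.1 ± 1.21 FPKM (-0.10, and -0.06 without siPRMT7 replicate 2), and SPDL1 had 21.6 ± 1.00 and 21.1 ± 0.424 FPKM (-0.03).

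Of the checkpoint genes, BUB1B and TTK separated the groups and the other 4 overlapped. BUB1B (ENSG00000156970, chromosome 15, 40161023 to 40221136, plus strand), which encodes BUBR1 of the mitotic checkpoint complex, had 12.01, 11.5, 11.5 and 11.8 FPKM in siCtrl replicates 1 to 4 and 10.03, 8.34, 9.77 and 9.84 FPKM in siPRMT7 replicates 1 to 4. The groups were separated by 1.43 FPKM, siPRMT7 replicate 2 was lowest, and the mean was 18.8% lower (log2 difference -0.28, 95% interval -0.41 to -0.15, limma adjusted p = 0.166). The read-through gene BUB1B-PAK6 shares 10.2% of its exonic bases. TTK (ENSG00000112742, chromosome 6, 80003887 to 80042527, plus strand), the kinase MPS1 that starts checkpoint signalling, had 4.78, 5.30, 5.49 and 5.90 FPKM in siCtrl replicates 1 to 4 and 4.37, 4.71, 4.46 and 3.75 FPKM in siPRMT7 replicates 1 to 4. Every siPRMT7 library lay below every siCtrl library, the closest pair being 4.71 and 4.78 FPKM, and the mean was 19.5% lower (log2 difference -0.26, 95% interval -0.43 to -0.09, limma adjusted p = 0.232). BUB1, a kinase that marks the inner centromere, had 9.80 ± 0.442 and 8.77 ± 0.716 FPKM (log2 difference -0.15, 95% interval -0.28 to -0.01, limma adjusted p = 0.359). MAD2L1, which encodes the MAD2 that binds CDC20, had 5.84 ± 0.426 and 5.34 ± 0.571 FPKM (-0.11), its docking partner MAD1L1 had 5.31 ± 0.266 and 5.56 ± 0.464 FPKM (0.05), and BUB3 had 16.4 ± 0.619 and 15.8 ± 1.34 FPKM (-0.06). Without siPRMT7 replicate 2 the log2 differences of MAD2L1, MAD1L1 and BUB3 were -0.17, 0.02 and -0.11. MAD2L1 and BUB3 then did not overlap between groups and were lower at an unadjusted p under 0.05 (limma adjusted p = 0.325 and 0.305).

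To set subunits of a complex against each other, the FPKM ratio of binding partners was taken in each library for 18 pairs, with no test. The ratio of CENPI to CENPM was 0.729 to 0.843 in siCtrl and 0.439 to 0.688 in siPRMT7 libraries, and that of DSN1 to NSL1 was 1.37 to 1.56 in siCtrl and 1.18 to 1.27 in siPRMT7 libraries. In these 2 pairs all siPRMT7 libraries lay below all siCtrl libraries. The other 16 pairs overlapped. How often other pairs of genes separate in this way was not computed, and the pairs were chosen after the values were seen. The ratio of KNL1 to ZWINT was 0.1004 to 0.119 in siCtrl and 0.0723 to 0.101 in siPRMT7 libraries, that of BUB1B to BUB3 0.678 to 0.767 in siCtrl and 0.471 to 0.682 in siPRMT7 libraries and that of SPC24 to SPC25 1.01 to 1.501 in siCtrl and 1.30 to 1.75 in siPRMT7 libraries. For NDC80 to NUF2 it was 1.21 to 1.54 in siCtrl and 1.34 to 1.78 in siPRMT7 libraries, and for MAD1L1 to MAD2L1 0.854 to 0.988 in siCtrl and 0.979 to 1.10 in siPRMT7 libraries. Without siPRMT7 replicate 2 the MAD1L1 to MAD2L1 ratio, at 1.03 to 1.10 in the 3 siPRMT7 libraries, lay above every siCtrl value, the CENPI/CENPM and DSN1/NSL1 pairs were still lower, and the other 15 overlapped.

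**Figure D4:**
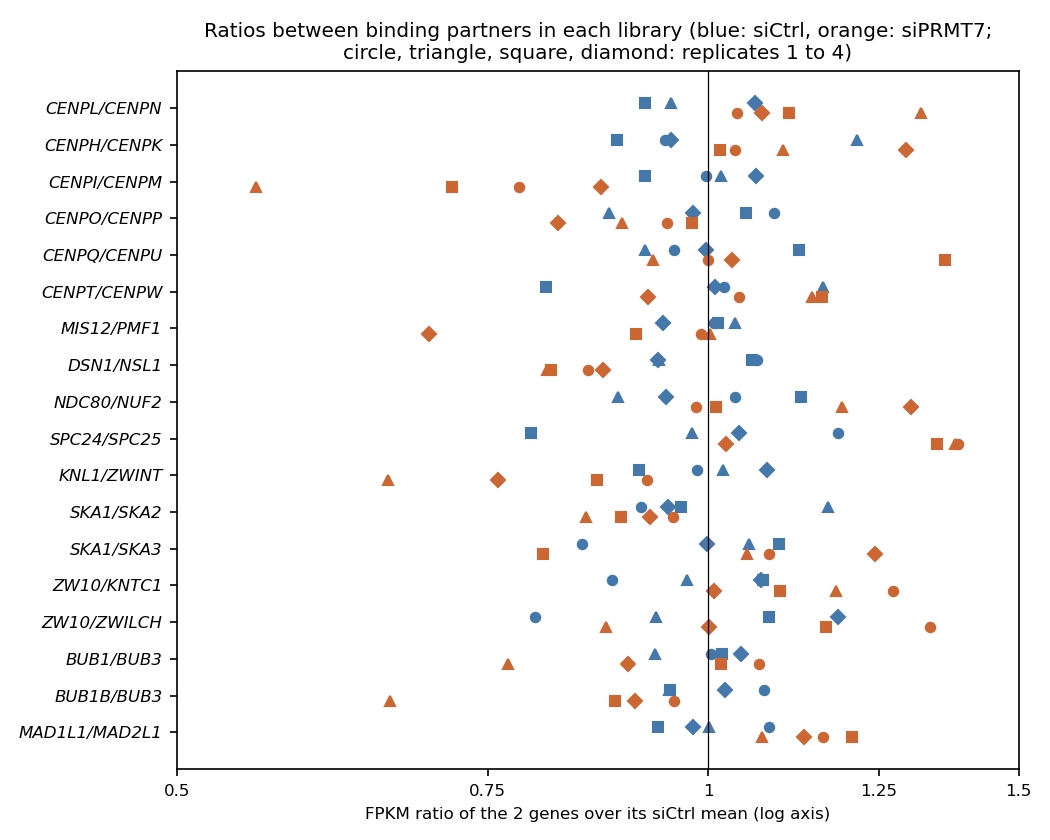
FPKM ratio of 2 binding partners in each library, divided by its siCtrl mean (log axis), for 18 pairs, with siCtrl in blue and siPRMT7 in orange. The CENPI/CENPM and DSN1/NSL1 rows show all orange points left of all blue ones, and in the other 16 rows the colours overlap.

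Gene length moved with the differences. Across the 41 members Spearman's rho between gene length and log2 difference was -0.34, and across the 13436 genes tested it was also -0.34. Without siPRMT7 replicate 2 these were -0.28 and -0.21. These are descriptions across genes that share the same libraries. Among the 20 members longer than 3600 bases 10 were lower at an unadjusted p under 0.05 (50%, median -0.14), against 7.09% of all genes longer than that. Among the other 21 members there were 5 (23.8%, median -0.05), against 3.18% of all genes of 3600 bases or fewer. Without siPRMT7 replicate 2 there were 11 of 20 (against 7.31%) and 5 of 21 (against 3.91%). Across all genes, a library's deviation from the gene means went with length at a rho of -0.39 in siPRMT7 replicate 2 and -0.25 in siPRMT7 replicate 3, and at -0.03 to 0.28 in the other 6 libraries. With each library's trend on length removed, 34 of 41 members were lower (median -0.13) and 19 were lower at an unadjusted p under 0.05, against 5.93% of all genes. In that fit 1 member, SPC25, was called, among 36 of all genes.

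**Figure D5:**
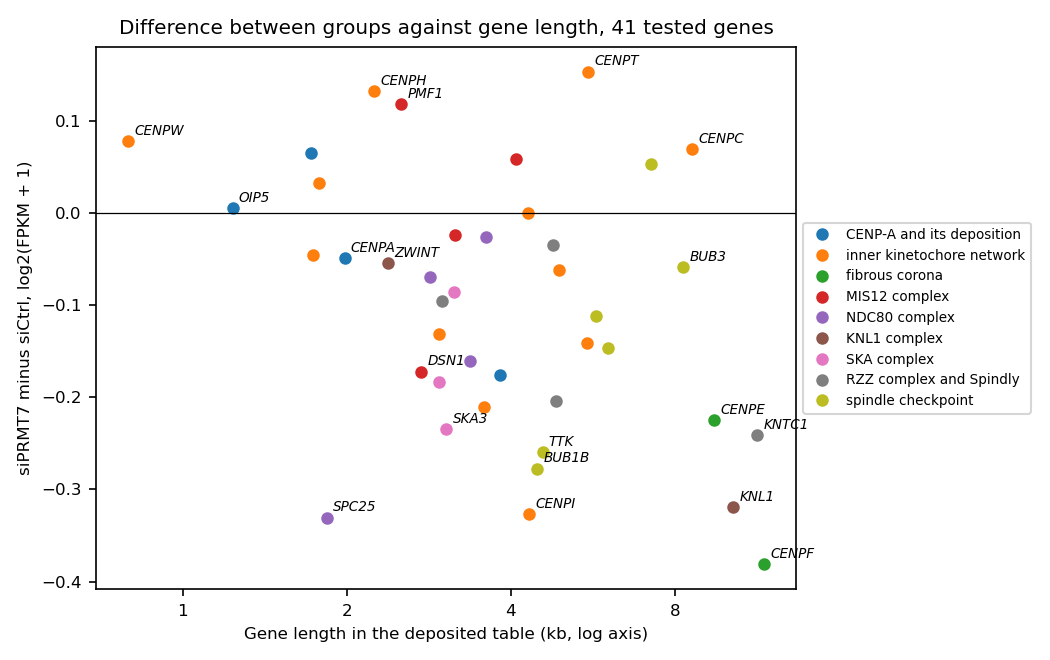
Difference between groups (siPRMT7 minus siCtrl, log2(FPKM + 1)) against gene length in kilobases (log axis) for the 41 tested genes, coloured by complex. CENPF, KNL1, KNTC1 and CENPE, at the right, lie between -0.38 and -0.22, while SPC25, at 1841 bases, lies at -0.33. CENPC (8613 bases), BUB3 (8300) and MAD1L1 (7230), also long, lie near 0, at 0.07, -0.06 and 0.05.

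Of 25 other centromere and kinetochore genes, which are not among the 42, 20 were lower (80%, median -0.08), 7 of these at an unadjusted p under 0.05 (28%, against 5.49% of all genes) and 0 at an adjusted p of 0.05. SGO2, the shugoshin that protects centromeric cohesin, had 5.50 ± 0.468 and 4.46 ± 0.144 FPKM (log2 difference -0.25, 95% interval -0.38 to -0.11, limma adjusted p = 0.189). Of 10 mitotic kinesins 9 were lower (median -0.22), 7 at an unadjusted p under 0.05 (70%), with KIF11 at -0.31 and KIF14 at -0.28. Of 20 replication licensing and fork genes 16 were lower (median -0.08), 6 at an unadjusted p under 0.05 (30%), with GINS4 at -0.27 and MCM4 at -0.15. Without siPRMT7 replicate 2, 20 of 25, 10 of 10 and 17 of 20 genes of these 3 lists were lower (medians -0.09, -0.18 and -0.09). The numbers lower at an unadjusted p under 0.05 were then 7, 7 and 7, against 5.94% of all genes. As reported with all libraries, none of these lists had a member past an adjusted p of 0.05, and differences between the lists were not tested.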

How the data were processed

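Human poly(A) RNA libraries, 4 siCtrl and 4 siPRMT7 by their titles, were compared in 1 deposited table of FPKM values made by the authors. Per the submitters' processing notes, the tools were cutadapt (2.5), HISAT2 (2.1.0) and featureCounts (1.6.3), and a mouse build is listed. All 58735 rows are human genes whose start, end and strand match GENCODE release 29 on GRCh38, used for coordinates here. Strand use in counting: not given in the sources used here. FPKM times gene length gave whole fragments for 100% of values above 0 (tolerance 0.01), and the libraries were already scaled by median ratios. Floors (3 fragments) cover counting error only.

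Genes with at least 1 FPKM in at least 4 libraries (13436) were fitted as log2(FPKM + 1) in limma 3.58.1 (R 4.3.3) with a variance trend, two-sided, Benjamini-Hochberg adjusted over all of them, threshold 0.05. This scale understates changes of low genes. The fit was tested on simulated data whose changes were larger than those of the members, with no library standing apart and no trend on length. That test does not show how the fit performs on changes as small as these. PRMT7 had an exact permutation test over 70 assignments. Full values go to the 12 members with the smallest p, which covered every complex. From each comparison list the 2 genes with the smallest p were selected. SGO2 is given with group means and statistics, and KIF11, KIF14, GINS4 and MCM4 with the log2 difference only. Some genes these rules select are not reported here. Full statistics of SKA3, BUB1 and CENPT were added after their values were seen, as were the partner pairs, the motifs and the length analysis. The members and lists were chosen with earlier results of these data known. Alternatives were pseudocounts, filters, scalings, library weights, voom, a replicate block and leaving out each library. Removal of the length trend was chosen after seeing the data.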

Additional observations from a re-analysis of the deposited data

Results flagged for a closer look

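In 86 groups of 4 libraries (each of the 42 genes and PRMT7 in each condition), 2 held a library far from the other 3, where chance flags about 1 in 20 groups. NUF2 had 3.99 FPKM in siPRMT7 replicate 4, while the other siPRMT7 libraries had 4.93 to 5.03 FPKM. BUB1B had 8.34 FPKM in siPRMT7 replicate 2, while the others had 9.77 to 10.03 FPKM. Without that library the log2 difference of BUB1B was -0.22 in place of -0.28.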

How the results depend on the processing

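The count of members called lower was 0 as reported, 2 with library weights, 1 with voom on rebuilt fragments and 1 with the length trend removed, and 0 in every other setting run, and 0 were called higher in any. Members lower in every siPRMT7 library were 11 as reported, 7 with a filter of at least 5 FPKM (30 members tested) and 14 on the TPM scale. The share of all genes that did not overlap was not computed for the filter or the TPM scale. On the TPM scale all genes moved down, with a median of -0.035. At an unadjusted limma p under 0.05, 7.78% of all genes were lower on that scale, against 5.49% as reported and 5.95% with the filter. Leaving out 1 library, 29 to 33 members were lower (median -0.12 to -0.06), 12 to 16 at an unadjusted p under 0.05 (3.44 to 8.53% of all genes), and 11 to 14 did not overlap (5.55 to 9.53% of all genes). The 12 genes with full values kept a negative difference in all settings in which they were tested. They were chosen by the smallest p in these same libraries, which every setting reuses, so this is not independent support. The log2 difference of PRMT7 was -0.14 on the TPM scale, where the exact permutation p was 0.0286, and -0.13 to -0.07 without 1 library (exact p 0.0571 to 0.114). Same-numbered libraries showed no shared deviation (correlations -0.03, -0.01, 0.05 and 0.06), where libraries with different numbers had -0.12 to 0.13. The labels do not say whether the numbers pair the libraries, and these correlations cannot decide it. With a replicate block 30 members were lower (median -0.08), 14 at an unadjusted p under 0.05 (4.81% of all genes) and 0 called, and the exact p of PRMT7 was 0.125, the smallest that 4 pairs allow. Counting limits SPC25 (60 to 98 fragments), CENPP (51 to 63) and CENPK (86 to 120) most.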
